A study of Rattus norvegicus with 8 samples.

Results

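The genes described are those of the proteasome, taken as all probes of the rat array, other than control spots, whose gene name begins with Psm followed by a letter from a to g and a digit. This rule found 50 probes of 42 gene symbols among 41012 probes. By role they were 18 probes of 17 genes of the 20S core (Psma and Psmb), 25 probes of 19 genes of the 19S cap (Psmc and Psmd) and 5 probes of 4 genes of the activators (Psme). Psma3l, a Psma3-like sequence, and Psmc3ip, which is not a proteasome subunit and meets the rule by its name alone, were kept in the counts but put in no class. The array names held no Psma8, Psmb11, Psmd14, Psmf1 or Psmg gene.

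The samples were testes explanted mid-gestation from Sprague-Dawley rat fetuses and cultured for 72 h with mono-(2-ethylhexyl) phthalate (MEHP), the active metabolite of a common plasticizer. A single testis had received 1 µM MEHP and 3 testes, each from a different litter according to the methods, had received 10 µM MEHP. The comparison in every case was RNA pooled from 3 testes given the vehicle, DMSO, alone. Each treated testis was hybridized against this pool on 2 two-colour arrays, so that 8 arrays stand for 4 testes, and the pool counts as 1 control sample whose own spread is not measured. The question was which transcripts a direct exposure of the fetal testis to MEHP alters.

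The proteasome is the main protease of the cytosol and nucleus. Its 20S core is a barrel of stacked rings in which outer alpha rings gate the entry and inner beta rings carry the proteolytic sites. The 19S cap binds ubiquitin-tagged proteins, unfolds them with a ring of ATPases and feeds them into the core, whereas the activators encoded by the Psme genes open the core without the cap. Immune signals such as interferon are known to raise a set of alternative beta subunits (Psmb8, Psmb9 and Psmb10), which replace the constitutive catalytic subunits (Psmb5, Psmb6 and Psmb7) in newly assembled particles, called immunoproteasomes.

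The promoter windows of the 3 genes that were called lower at 10 µM and of the 2 that were called higher at 1 µM are shown because the results turn on these genes. The 250 bases before the transcript start are given 5′ to 3′ on the gene's strand (RefSeq, GRCr8), in lower case. Capitals mark any match, on either strand, to CCAAT, to TGACNNNGC, which is the core letters of an antioxidant response element, or to GAAANNGAA, which is part of an interferon-stimulated response element and was chosen after the windows had been seen. The start used for Psmb1 lies inside the annotated gene.
Psmb1 (chr1:65134771-65135020, minus strand): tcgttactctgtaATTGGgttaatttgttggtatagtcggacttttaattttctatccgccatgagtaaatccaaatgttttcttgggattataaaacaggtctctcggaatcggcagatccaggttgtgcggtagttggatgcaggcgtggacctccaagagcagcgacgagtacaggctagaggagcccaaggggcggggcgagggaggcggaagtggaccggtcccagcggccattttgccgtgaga
Psma6 (chr6:78514097-78514346, plus strand): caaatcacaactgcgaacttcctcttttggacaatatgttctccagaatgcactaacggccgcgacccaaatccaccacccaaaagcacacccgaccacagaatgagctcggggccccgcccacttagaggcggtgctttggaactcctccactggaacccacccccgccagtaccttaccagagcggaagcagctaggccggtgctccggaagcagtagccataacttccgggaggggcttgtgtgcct
Psmc6 (chr15:21022064-21022313, plus strand): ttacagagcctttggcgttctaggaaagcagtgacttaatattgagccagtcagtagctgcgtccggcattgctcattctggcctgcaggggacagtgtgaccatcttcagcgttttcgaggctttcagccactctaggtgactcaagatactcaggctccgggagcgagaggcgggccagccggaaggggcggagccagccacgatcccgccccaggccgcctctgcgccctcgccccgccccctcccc
Psmb9 (chr20:4668750-4668999, plus strand): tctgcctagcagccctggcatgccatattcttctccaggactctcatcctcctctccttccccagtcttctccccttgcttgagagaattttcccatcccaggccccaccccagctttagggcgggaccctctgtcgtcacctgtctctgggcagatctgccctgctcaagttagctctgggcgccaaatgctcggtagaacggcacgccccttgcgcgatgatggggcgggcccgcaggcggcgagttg
Psmb10 (chr19:50743293-50743542, minus strand): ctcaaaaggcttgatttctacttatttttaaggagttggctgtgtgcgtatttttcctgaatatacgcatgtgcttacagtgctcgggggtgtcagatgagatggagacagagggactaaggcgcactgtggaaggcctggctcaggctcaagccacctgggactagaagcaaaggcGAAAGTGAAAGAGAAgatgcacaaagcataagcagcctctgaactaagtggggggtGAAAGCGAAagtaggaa
No match of one motif overlaps a match of another. Psmb1 holds 1 CCAAT match, on the opposite strand, and Psmb10 holds 3 GAAANNGAA matches, 2 of which overlap each other, whereas the windows of Psma6, Psmc6 and Psmb9 hold none of the 3 motifs. A window was found for 38 of the 42 member symbols. TGACNNNGC was present in 7 of the 38 windows (18.4%), against 10.1% of 33469 rat promoter windows of the same length. CCAAT was present in 19 of 38 (50% against 34%), and GAAANNGAA in 7 of 38 (18.4% against 8.12%), namely those of Psma4, Psmb2, Psmb3, Psmb10, Psmd7, Psmd11 and Psme2. These matches describe letters only and were not tested for binding.

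The values are log2 ratios of MEHP over the vehicle pool, averaged over both hybridizations of a testis. The labels put the treated RNA on the green dye throughout, while the methods state that dyes were exchanged in the repeat hybridization. Before any turning of signs, the log ratios of a testis and of its repeat ran against each other in all 4 testes (r from -0.50 to -0.82 over 3668 probes well above background in a channel on every array). Over all probes that passed the filter at the testis's own dose, r was -0.23, -0.53 and -0.40 in testes 1, 2 and 3 at 10 µM but 0.16 at 1 µM. The treated RNA was therefore read from green on the first array and from red on the repeat. This direction is likely, but the labels and the methods do not settle it, and the opposite reading of both arrays would turn every sign. Read as here, the steroidogenic gene Cyp17a1 had a mean of -1.96 at 10 µM. The study reported Cyp17a1 as lower by RT-PCR at this dose. The cholesterol transport gene Star, which tended to be higher by RT-PCR, had a mean of -0.56 here. Testis 2 at 10 µM stood apart. Treated RNA was well above background for 0.25% and 1.54% of probes on its 2 arrays, against 7.80% to 29.8% on the other 6 arrays, and its ratios are therefore given separately beside each result. On these arrays the 3 marker lists for steroid-producing Leydig cells, supporting Sertoli cells and germ cells differed in detection. Of 6 listed markers each, 4 of the Leydig list and 4 of the Sertoli list passed the filter for testing, and of the 5 germ cell markers on the array none did. The Leydig medians at 10 µM were -0.93, -1.46 and -1.97 in testes 1, 2 and 3, with 1 of 4 called lower (Cyp17a1, a steroidogenic enzyme), and the Sertoli medians were -0.23, -1.04 and -1.31, with 0 of 4 called. The part of these cell types in the results was not tested.

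At 10 µM, 47 of the 50 probes were bright enough to be tested, with treated or vehicle RNA well above background on at least 3 of 6 arrays. The 3 probes left out were that of Psmd13, 1 of 3 for Psmd7 and 1 of 2 for Psme4. In limma, with Benjamini-Hochberg adjustment over all 10001 probes tested, 3 of the 47 were called lower, which are probes of Psmb1, Psma6 and Psmc6, and 0 were called higher. Over all probes tested, 1.89% were called lower and 0.38% higher. At an unadjusted p under 0.05, 22 of the 47 were lower, against 15.9% of all probes, and 0 were higher, against 1.78%. The ratio was below 0 in all 3 testes for 32 of the 47, against 36.3% of all probes, and the mean was below 0 for 43 of the 47, against 72.8%. None of the 47 was above 0 in all 3 testes, against 3.82% of all probes. In these counts the members and all probes were not matched for brightness. In bulk tissue, fewer cells of a type and less RNA per cell cannot be told apart.

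**Figure D1:**
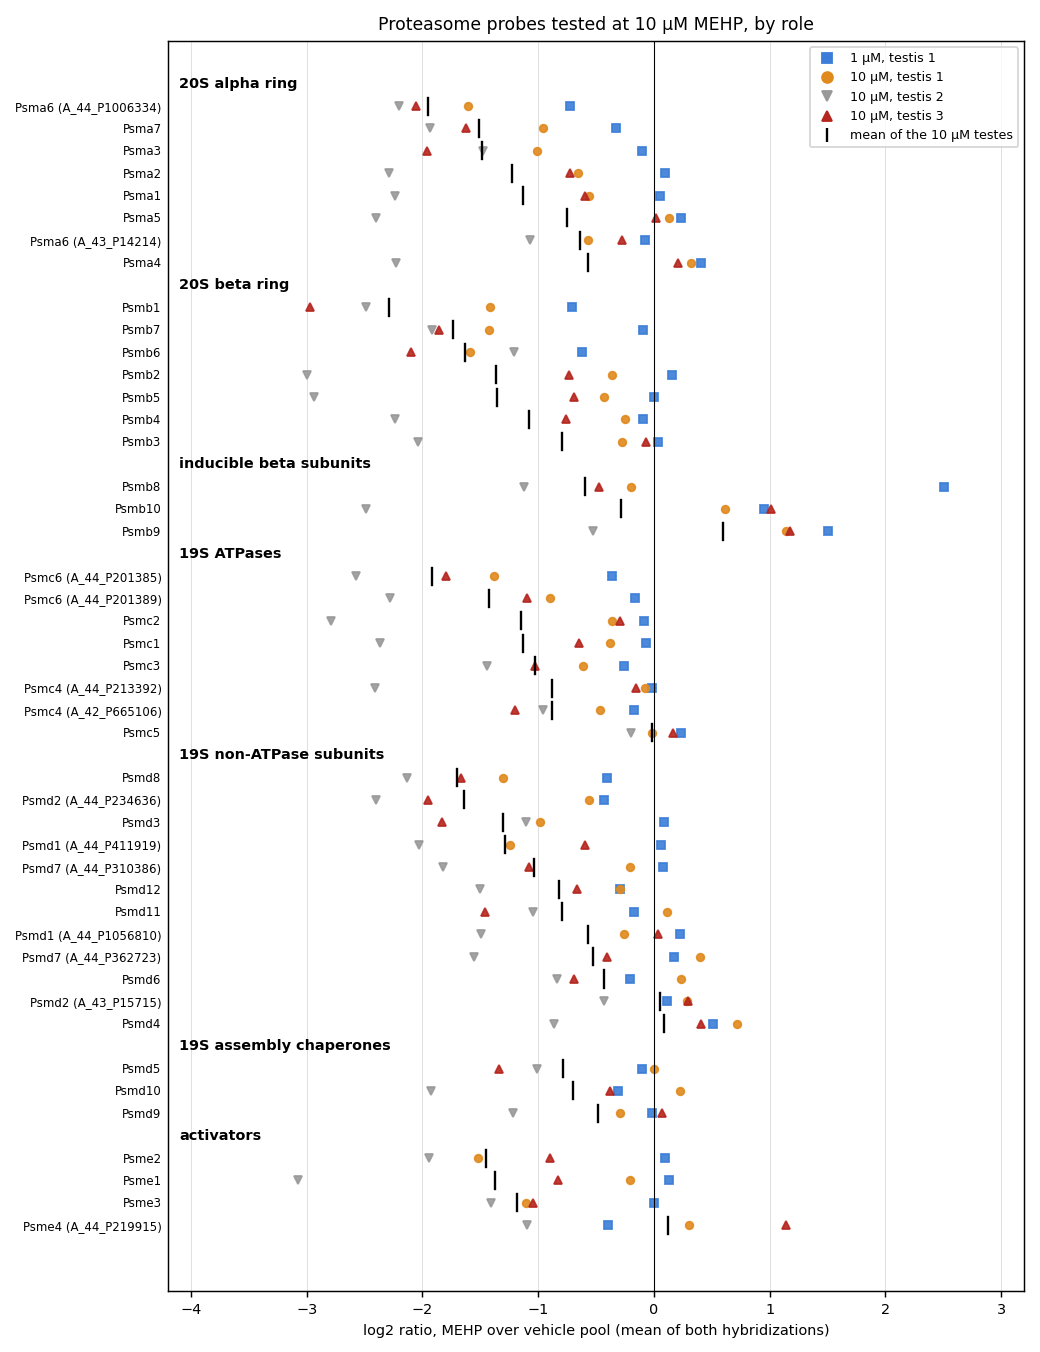
Log2 ratio of MEHP over the vehicle pool (x axis) for each of the 45 tested probes with a role (rows, grouped by role and ordered by mean); symbols are the 4 testes, each the mean of its available hybridizations, and the black bar is the mean of the 3 testes at 10 µM. Most probes of the 20S rings and of the ATPases lie left of 0 at 10 µM and near 0 at 1 µM, whereas Psmb9 and Psmb10 lie right of 0 in every testis but testis 2.

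The lowest mean of the 47 probes belonged to Psmb1, a non-catalytic subunit of the beta ring. Its log2 ratio was -1.42, -2.49 and -2.97 in testes 1, 2 and 3 at 10 µM, and -0.71 in the testis at 1 µM. The mean at 10 µM was -2.29 ± 0.80 (SD, n = 3), a 4.90-fold decrease, with an adjusted p of 0.0167 in limma. The testis at 1 µM was thus less reduced than any of the testes at 10 µM. The processed signals on which these ratios rest were 778 and 581 intensity units for MEHP in testis 1, against 2182 and 1476 for vehicle on the same arrays. In testis 3 they were 162 and 624 for MEHP, against 2025 and 3064 for vehicle. MEHP was below vehicle on all 8 arrays. After normexp background correction and loess normalization the mean at 10 µM was nearer 0, at -0.74, with an adjusted p of 0.288 in limma.

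Psma6 encodes a subunit of the alpha ring and had 2 probes that differed. With probe A_44_P1006334 the log2 ratio was -1.61, -2.21 and -2.05 in testes 1, 2 and 3 at 10 µM and -0.73 at 1 µM. The mean at 10 µM was -1.96 ± 0.31 (SD, n = 3), with an adjusted p of 0.0406 in limma. With probe A_43_P14214, which was several times brighter, the ratio was -0.57, -1.07 and -0.28 at 10 µM and -0.08 at 1 µM, and the mean of -0.64 ± 0.40 had an adjusted p of 0.578 in limma. For this brighter probe the first hybridization of testis 1 was an outlier spot, so its value there rests on the repeat alone. Both probes lay below 0 in every testis, but they differed by 1.32 in their means at 10 µM.

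Psmc6, an ATPase of the base of the cap, also had 2 probes. Probe A_44_P201385 gave -1.38, -2.57 and -1.80 in testes 1, 2 and 3 at 10 µM and -0.36 at 1 µM. The mean at 10 µM was -1.92 ± 0.60 (SD, n = 3), with an adjusted p of 0.0428 in limma. Probe A_44_P201389 gave -0.89, -2.28 and -1.10 at 10 µM and -0.16 at 1 µM, with a mean of -1.42 ± 0.75 and an adjusted p of 0.140 in limma. The order of the testes was thus the same with either probe, and the second probe did not pass the threshold.

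These 3 calls depended on the testes included. Without testis 1 and without testis 3, 0 of the 47 probes were called in limma (14 and 10 at an unadjusted p under 0.05), and over the whole array 0 of 10000 and 0 of 9996 probes were. Without testis 2, 12 were called lower, among them the 3 above, against 9.64% of all probes, and 1 was called higher, against 7.25%. The 12 were Psma3, Psma3l, Psma6 (A_44_P1006334), Psma7, Psmb1, Psmb6, Psmb7, Psmc6 (A_44_P201385), Psmd3, Psmd8, Psme2 and Psme3, and the one called higher was Psmb9. Treated RNA was not well above background on either array of testis 2 for 42 of the 47 probes, so that the size of the ratio there depended on signals at the detection limit. For each of the 3 probes called lower with all testes, treated RNA was well above background on 3 of 6 arrays. It thus fell short on both arrays of testis 2 and also on an array of testis 1 or 3. With the log ratios of each array centred on their median, the same 3 probes were called lower and 0 higher, where 1.06% of all probes were lower and 0.97% higher.

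**Figure D2:**
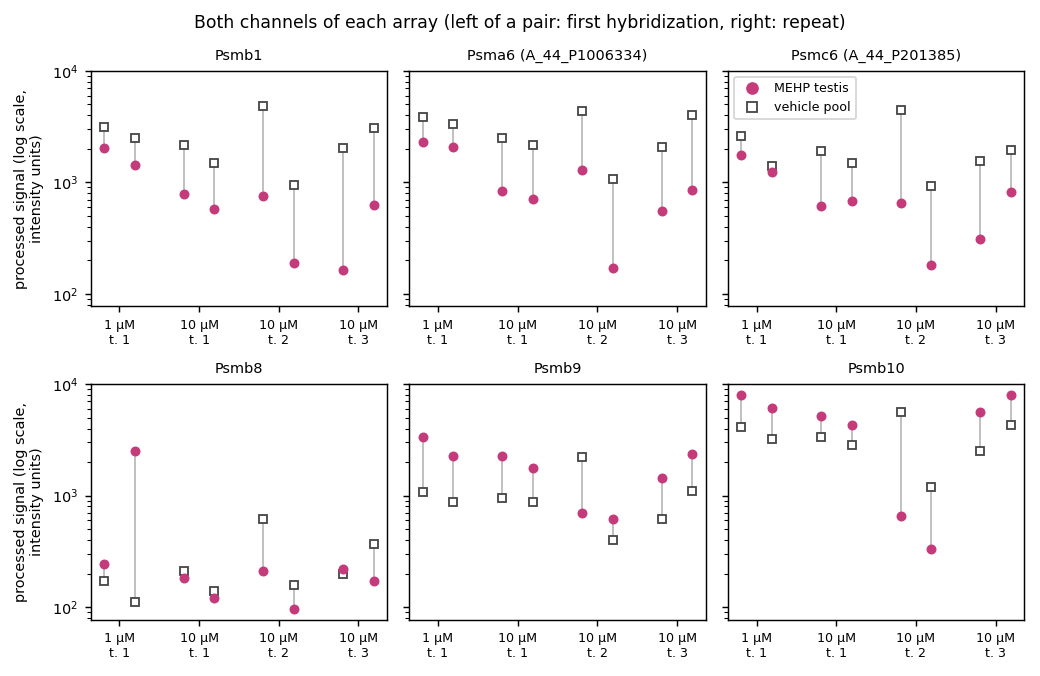
Processed signal (y axis, intensity units, log scale) of the MEHP-treated testis (filled circles) and the vehicle pool (open squares) on each of the 8 arrays, for the 3 probes called lower at 10 µM and the 3 inducible beta subunits; each grey line joins the channels of 1 array, and t. stands for testis. MEHP lies below vehicle on all 8 arrays for Psmb1, Psma6 and Psmc6, and above it on the 6 arrays outside testis 2 for Psmb9 and Psmb10.

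The other subunits of the alpha ring, which gates the core, spread widely. Of its 8 probes, 6 were below 0 in all 3 testes at 10 µM and 1 was called lower. Psma7 was at -0.96, -1.93 and -1.63 in testes 1, 2 and 3, and its mean of -1.51 ± 0.50 had an adjusted p of 0.117 in limma. Psma4 stood at the other end, at 0.32, -2.23 and 0.21, so that only testis 2 was below 0, and its mean of -0.57 ± 1.44 had an adjusted p of 0.637.

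The 7 constitutive beta ring probes were below 0 in every testis at 10 µM, and 1 of them, Psmb1, was called. Psmb7, which carries the trypsin-like site, was at -1.43, -1.92 and -1.86, with a mean of -1.74 ± 0.27 and an adjusted p of 0.0656 in limma, the smallest among the member probes that were not called. Psmb6, which carries the caspase-like site, was at -1.59, -1.21 and -2.10, with a mean of -1.63 ± 0.45 and an adjusted p of 0.0856. Its value in testis 2 averages discordant arrays, -0.17 on the first (2845 units for MEHP against 3205 for vehicle) and -2.24 on the repeat (202 against 956), and treated RNA was not well above background on either. Psmb5, which carries the chymotrypsin-like site, was at -0.43, -2.94 and -0.69, with a mean of -1.36 ± 1.38 and an adjusted p of 0.171. The SD over the testes was thus wider for Psmb5, with its low value in testis 2, than for Psmb7 and Psmb6. Psmb3, the structural beta subunit with the highest mean, was at -0.28, -2.04 and -0.07, with an adjusted p of 0.470.

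Of the 3 inducible beta subunits, Psmb9 and Psmb10 did not follow the constitutive ones in testes 1 and 3 at 10 µM. Psmb8 was below 0 in all 3 testes at 10 µM, at -0.20, -1.13 and -0.47 in testes 1, 2 and 3. Its mean of -0.60 ± 0.48 had an adjusted p of 0.607 in limma. Psmb9 was at 1.5 in the testis at 1 µM and at 1.14, -0.53 and 1.17 in testes 1, 2 and 3 at 10 µM. The mean at 10 µM was 0.60 ± 0.97 (SD, n = 3), which did not pass the test (adjusted p of 0.611 in limma). Leaving out testis 2 gave a mean of 1.16 and an adjusted p of 0.0378. Psmb10 was at 0.95 at 1 µM and at 0.62, -2.49 and 1.02 at 10 µM, with a mean of -0.29 ± 1.92 and an adjusted p of 0.849. Leaving out testis 2 gave 0.82, and the adjusted p was 0.115. In testis 2 the treated RNA was not well above background for any of the 3 genes.

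At 1 µM there was a single testis, and a probe was called, with no test, when both hybridizations showed a change of 1.5-fold or more the same way. Of the 49 member probes bright enough, 2 were called higher, against 4.05% of all probes, and 2 were called lower, against 2.96%. A limma test that was added after the data had been seen, in which the single testis was assumed to vary like those at 10 µM, called 0 of 47 member probes and 0 of 9994 in all. At an unadjusted p under 0.05 it gave 1 member, Psmb8, and 0.270% of all probes. The higher ones by the fold rule were Psmb9, at 1.64 on the first array and 1.36 on the repeat, and Psmb10, at 0.96 and 0.94. The lower ones were Psmb1, at -0.60 and -0.81, and Psma6 (A_44_P1006334), at -0.76 and -0.70. The 2 genes lower at 1 µM were thus among the 3 called lower at 10 µM, a comparison in which the same vehicle pool was used. With each array centred on its median, 3 member probes were higher at 1 µM and 0 were lower, where 7.64% of all probes were called in either direction. The probe that centring added was that of Psmb8. Psmb8 gave discordant ratios at 1 µM, 0.50 on the first array against 4.52 on the repeat. Its signals on the repeat array were 2539 units for MEHP and 111 for vehicle, against 245 and 173 on the first, and each channel passed the background limit on a single array, so that no level can be given for this testis.

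The pairs of inducible and constitutive subunits that replace each other in the particle were set side by side within each testis, as the difference of their log2 ratios, a quantity that the centring of an array does not alter. Psmb9 exceeded Psmb6 by 2.12 at 1 µM and by 2.73, 0.68 and 3.27 in testes 1, 2 and 3 at 10 µM, a mean of 2.23 ± 1.37 (SD, n = 3). The difference was above 0 on 7 of 8 arrays. The 2 arrays of testis 2 gave -1.50 and 2.86, so that its sign there was not established. Psmb10 exceeded Psmb7 by 1.04 at 1 µM and by 2.05 and 2.87 in testes 1 and 3 at 10 µM, but it was -0.57 in testis 2, and the mean was 1.45 ± 1.80. Psmb8 exceeded Psmb5 by 0.23, 1.81 and 0.22 at 10 µM, a mean of 0.76 ± 0.91, and in this pair testis 2 was the highest. At 10 µM the treated RNA of Psmb8 was well above background on 2 of 6 arrays and the vehicle on 4 of 6. In a two-sided exact permutation test over the signs of the 3 testes at 10 µM, which cannot give a p below 0.25, p was 0.25 for Psmb9 minus Psmb6, 0.5 for Psmb10 minus Psmb7 and 0.25 for Psmb8 minus Psmb5. Of 16 settings that kept the direction of the dyes, 8 moved these differences by more than 0.001 from the value reported, and over them the mean at 10 µM ranged from 0.98 to 3.01 for Psmb9 minus Psmb6, from 0.73 to 2.46 for Psmb10 minus Psmb7 and from 0.15 to 1.02 for Psmb8 minus Psmb5.

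**Figure D3:**
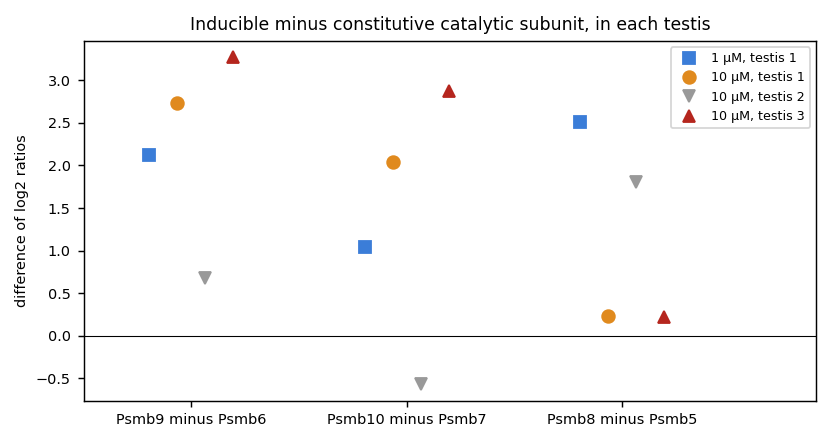
Difference of log2 ratios (y axis) between each inducible beta subunit and the constitutive subunit it replaces, with 1 symbol for each testis, the mean of both hybridizations. Psmb9 minus Psmb6 lies from 0.68 to 3.27, where the lowest value, that of testis 2, is the mean of arrays at -1.50 and 2.86, and Psmb10 minus Psmb7 in all but testis 2.

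Markers of immune cells, which carry immunoproteasomes, were read beside these genes. Of 5 listed markers, Ptprc and Csf1r, which define leukocytes and macrophages, were not well above background on enough arrays to be tested at either dose. The 3 others were not called at 10 µM, and their medians were -0.15, -0.90 and -0.44 in testes 1, 2 and 3. Their median at 1 µM was 0.64, with 0 of 3 called. Aif1, a macrophage gene, was at -0.34 at 1 µM and at -0.85, -0.90 and -1.21 at 10 µM, and Cd68, a gene of phagocytes, at 0.83 and at -0.11, -0.72 and 1.43. The part of immune cells in the values of Psmb9 and Psmb10 was not tested.

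Among the 19S ATPases, which unfold substrates, 7 of 8 probes were below 0 in all 3 testes at 10 µM and 1 was called lower. Psmc5 was the exception, at -0.01, -0.20 and 0.16 in testes 1, 2 and 3, and its mean of -0.02 ± 0.18 had an adjusted p of 0.993 in limma. It was also among the 5 probes whose treated RNA was well above background on an array of testis 2.

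The 12 tested probes of the other cap subunits of the lid and base gave 0 calls in limma and 4 at an unadjusted p under 0.05, all lower, and 6 were below 0 in all 3 testes. Psmd8, a lid subunit, had the lowest mean, at -1.31, -2.13 and -1.67 in testes 1, 2 and 3, a mean of -1.70 ± 0.41 with an adjusted p of 0.0710. Psmd4, a receptor for ubiquitin chains, had the highest, at 0.72, -0.86 and 0.41, a mean of 0.09 ± 0.84 with an adjusted p of 0.964, and it was at 0.51 at 1 µM. Adrm1, another ubiquitin receptor of the cap, which is no member by name, was not well above background and was not tested. The assembly chaperones of the cap base, Psmd5, Psmd9 and Psmd10, had means from -0.78 to -0.48 with 0 calls and none at an unadjusted p under 0.05. Psmd5 was at -0.000927, -1.01 and -1.34 and Psmd9 at -0.30, -1.22 and 0.07 in testes 1, 2 and 3, so that the 2 chaperones differed in testis 3.

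The activators gave 0 calls among 4 tested probes and 3 at an unadjusted p under 0.05, all lower. Psme1 and Psme2 form the interferon-responsive cap PA28 alpha-beta. Psme1 was at -0.21, -3.08 and -0.83 in testes 1, 2 and 3, with an adjusted p of 0.167 in limma, and Psme2 was at -1.52, -1.95 and -0.90, with an adjusted p of 0.131. At 1 µM they were at 0.13 and 0.10. Neither gene was above 0 in any testis at 10 µM. An interferon response was not tested. Psme3, the nuclear activator PA28 gamma, was even among the testes, at -1.10, -1.41 and -1.04, a mean of -1.18 ± 0.20 with an adjusted p of 0.236. This p from limma rests on a standard error of 0.556, drawn towards the spread of all tested probes, and not on the SD of Psme3 alone. Psme4, the activator PA200, was at 0.30, -1.10 and 1.14 with its brighter probe, whose treated RNA was well above background on 2 of 6 arrays and whose vehicle was on 3 of 6.

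By class, the median log2 ratio of the 20S core was 0.01 in the testis at 1 µM and -0.50, -2.22 and -0.71 in testes 1, 2 and 3 at 10 µM. That of the 19S cap was -0.09 at 1 µM and -0.30, -1.50 and -0.66 at 10 µM. That of the activators was 0.05 at 1 µM and -0.65, -1.68 and -0.86 at 10 µM. The medians of all tested probes were 0.02 at 1 µM and 0.09, -1.14 and -0.20 at 10 µM. Each of these class medians at 10 µM was thus below that of all probes in the same testis. The core minus the cap was -0.20, -0.72 and -0.05 in testes 1, 2 and 3 and 0.10 at 1 µM, and it was widest in testis 2. Over the 3 testes the medians were -1.14 ± 0.94 for the core, -0.82 ± 0.62 for the cap and -1.06 ± 0.54 for the activators (SD, n = 3). Testis 2 was the lowest in every class. Taken within each testis as the distance from the median of all probes, the means were -0.73 ± 0.31 for the core, -0.40 ± 0.05 for the cap and -0.65 ± 0.10 for the activators. The cap minus the activators was 0.36, 0.18 and 0.20 in testes 1, 2 and 3, a mean of 0.24 ± 0.10, and the core minus the cap had a mean of -0.32 ± 0.35. The differences between classes were not tested. After background correction by normexp and loess normalization the class medians were nearer 0, at -0.30, -0.16 and -0.31, with the same direction.

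**Figure D4:**
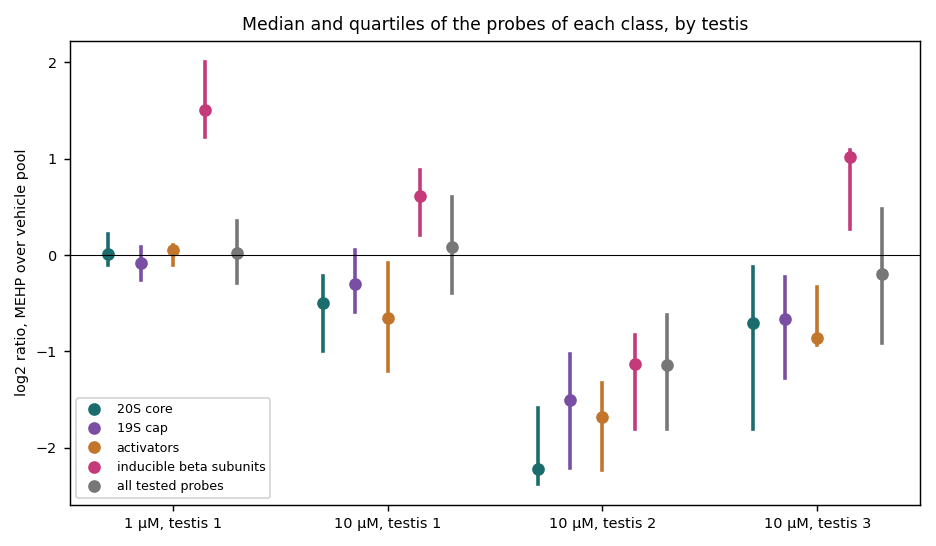
Median log2 ratio of MEHP over the vehicle pool (y axis, circles) with lower and upper quartiles over probes (bars) for each class in each testis, beside all tested probes; the 3 inducible beta subunits are also part of the 20S core. The core, cap and activators lie near 0 at 1 µM and below all probes in each testis at 10 µM. Outside testis 2, the median of the 3 inducible subunits lies above that of all probes.

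Both doses were compared directly in limma, with 1 testis at 1 µM assumed to vary like the others. Of the 47 probes, 0 differed after adjustment, where 0% of 9999 probes did, and 1 differed at an unadjusted p of 0.00600, namely Psmb8, whose 1 µM value rests on the discordant pair of arrays above. Over all probes, 0.24% differed at an unadjusted p under 0.05. The mean at 10 µM was below the 1 µM value for 46 of the 47, against 78.5% of all probes. The testis at 1 µM and testis 3 at 10 µM were on the same slide, and testes 1 and 2 on another. Within the shared slide, testis 3 minus the 1 µM testis had a median of -0.69 over the 47 probes, against -0.26 over all probes, and was below 0 for 43 of them.

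Different probes of a gene were tested for 6 genes. The means at 10 µM differed by 1.69 for Psmd2, a large scaffold subunit of the cap base, by 1.32 for Psma6, by 0.72 for Psmd1, by 0.51 for Psmd7, by 0.49 for Psmc6 and by less than 0.01 for Psmc4. For Psmd2 the testis values were -0.56, -2.40 and -1.95 with probe A_44_P234636 and 0.28, -0.43 and 0.29 with probe A_43_P15715, so that both probes disagreed in direction in testes 1 and 3. The near-equal means of Psmc4 hid opposite patterns, at -0.08, -2.41 and -0.16 with probe A_44_P213392 and at -0.47, -0.96 and -1.20 with probe A_42_P665106. The value of probe A_44_P1056810 for Psmd1 in testis 1 rests on the first hybridization alone. The rat annotation used holds 48 pseudogenes and 54 protein-coding loci with names of this family, and which of them a probe can bind was not examined. These genes other than Psma6 and Psmc6 were chosen after their values were seen.

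**Figure D5:**
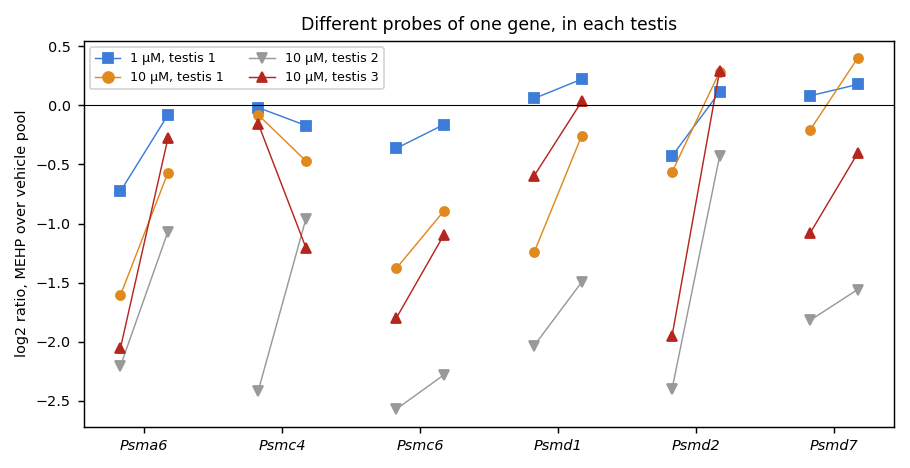
Log2 ratio of MEHP over the vehicle pool (y axis) for the 2 tested probes of each of 6 genes (the probe with the lower mean at 10 µM at left), with a line for each testis joining its 2 values. The lines are steep for Psma6 and Psmd2, cross for Psmc4 and are flatter for Psmc6.

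Of 38 listed neighbours of the pathway (ubiquitin genes, ubiquitin-activating enzymes, cap-associated receptors and deubiquitinases, the Vcp unfoldase with its cofactors, and the transcription factors that drive proteasome genes), 24 were on the array and 17 were tested at 10 µM. In limma 0 were called lower and 0 higher, and their medians were -0.19, -1.83 and -0.52 in testes 1, 2 and 3, in each testis between the median of the members and that of all probes. At 1 µM, 1 of 21 was called lower (Nfe2l2). The 3 neighbours given next were chosen after their values were seen. Nfe2l2, which encodes NRF2, a transcription factor of antioxidant and some proteasome genes, was at -1.83, -2.07 and -1.39 at 10 µM, with an adjusted p of 0.0610, and at -0.72 at 1 µM. It was called lower when testis 2 was left out (limma, adjusted p of 0.0157). Nfe2l1, which encodes NRF1, the factor that restores proteasome genes when the proteasome is inhibited, was at -0.04, -0.49 and 0.04 at 10 µM. Vcp, the unfoldase that hands substrates to the proteasome, was at -0.54, -2.69 and -1.62, with an adjusted p of 0.0896 in limma.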

How the data were processed

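Gene expression was measured on Agilent two-colour whole rat genome arrays in explanted fetal testes. Per the labels, the scanner files were made with Agilent Feature Extraction 9.1 (the methods name another release), and the file headers show background subtraction and dye normalization by the authors. The deposited values used were the log10 ratio of red over green (LogRatio), its error score, the processed and mean intensity of each channel, and the flags. They were converted to log2, outlier spots were left out, spots of a probe were averaged, and the treated channel was taken as green in the first and red in the repeat hybridization. Both arrays of a testis were averaged to 1 value. A probe was tested where a channel was well above background on at least 3 of 6 arrays at 10 µM, and kept at 1 µM on at least 1 of 2. The mean of 3 testes was tested against 0 with limma 3.58.1 (lmFit, eBayes, R 4.3.3) and adjusted over all probes tested by the Benjamini-Hochberg method, at 0.05. This test leaves out the spread of the vehicle pool. The eBayes step draws the variance of each probe towards a common value, so a p does not measure the SD printed beside it. The limma standard error was 0.556 for Psme3 (SD 0.20) and 0.573 for Psmb10 (SD 1.92). The methods combined arrays with an error-weighted mean at p under 0.01, which was run as an alternative.

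The members, the classes and the lists of neighbours and markers were chosen with earlier results of these data known. Genes were named when a probe was called at either dose, when they had the highest or lowest mean of their role group by their brightest probe, or when they were catalytic, inducible, ubiquitin receptor or activator genes. Gene names are those of the array, and 37 of the 50 member accessions matched the GRCr8 RefSeq table. The deposited lists of significant genes hold the authors' own fold changes and p-values and were not used. The fit was tested on simulated data. Figures were drawn with matplotlib. The values of 1 listed neighbour gene are not reported here.

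The number of arrays limits the precision. A channel at the detection limit gives a ratio of uncertain size.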

Additional observations from a re-analysis of the deposited data

How the results depend on the processing

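No paired analysis was possible because no label links the testis at 1 µM to a testis at 10 µM. The fit with the slide as a random block could not be fitted with 4 testes on 2 slides. The number of member probes called at 10 µM, 3 with the settings reported, was 0 after normexp background correction and loess, after loess without background correction, with no filter on dim probes (0 of 50), with both channels required above background (0 of 21), with the first hybridizations alone, with MEHP read from Cy3 on every array, with a trended eBayes fit and with all 6 arrays and the testis as a random block, where limma gave from 1 to 21 at an unadjusted p under 0.05. Over the whole array these settings also called 0 probes, except where both channels were required (0.22%) and in the trended fit (0.90%). After normexp and loess the means at 10 µM were -0.74 for Psmb1, -0.64 for Psma6 (A_44_P1006334) and -0.59 for Psmc6 (A_44_P201385). After loess alone they were -0.66, -0.60 and -0.50. With the mean over a gene's probes 1 member probe was called, against 2.20% of all probes. When 1 testis was left out the number of members called ran from 0 to 13. With the error-weighted mean at an unadjusted p of 0.01 it was 35, of which 31 were lower and 4 higher, and 51.9% of all probes were called. It was 3 with the arrays centred on their median, which for all probes gave 106 lower and 97 higher in place of 189 and 38, with the repeat hybridizations alone, with outlier spots kept and with robust eBayes. These were the same 3 probes, except in the repeat hybridizations, which shared 2 of them, since Psmc6 (A_44_P201385) lost its call (limma, adjusted p of 0.121) and Psmb6 gained one (0.0337). At 1 µM 4 were called, against 7.01% of all probes. The number was 0 after normexp and loess, against 0.50% of all probes, and 2 after loess alone, against 0.79%. It was 7 and 10 with the first and the repeat hybridizations alone, where 40.0% and 47.5% of all probes were called. With MEHP read from Cy3 on every array it was 2, against 19.3%, and at a 2-fold limit 1, against 1.72%. In limma with the spread of the 10 µM testes, an alternative chosen after seeing the data, it was 0, against 0% of all probes. The mean class medians at 10 µM moved to -0.16 for the cap and -0.31 for the activators after normexp and loess, and kept their direction under the other settings tried. Between doses, limma called 0 member probes with the arrays centred and with each testis at 10 µM left out in turn (1 to 3 at an unadjusted p under 0.05).

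Among named probes at 10 µM, 283 of 360 values kept their direction and side of the threshold, 27 lost it, 21 gained it and 29 turned direction. Psmc5 turned to 0.0928 (normexp and loess), 0.0503 (loess), 0.44 (centred), 0.30 (repeat hybridizations) and 0.0718 (error-weighted), and ran from -0.11 to 0.0745 with 1 testis left out. Psmb10 turned to 0.41, 0.43 and 0.17 under the first 3 of these settings and to 0.53 with the error-weighted mean, and ran from -0.94 to 0.82 with 1 testis left out. Psma4 turned to 0.0681 with the error-weighted mean and ran from -1.01 to 0.26 with 1 testis left out, and Psmd9 turned to 0.0692 after normexp and loess. Psmd4 turned to -0.0505 with the first hybridizations and ran from -0.23 to 0.56 with 1 testis left out. Psme4 turned to -0.52 with the first hybridizations and ran from -0.40 to 0.72 with 1 testis left out. With MEHP read from Cy3 on every array the turned values were 0.21 for Psma6, -0.32 for Psmb9, -0.14 for Psmd4, 0.0481 for Psmd9, -0.64 for Psme4, 0.073 for Psmb8, 0.0417 for Psmb5, 0.47 for Psmb6, 0.0097 for Psmb7 and 0.0035 for Psme1. The cause of these changes was not tested.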
